A study of Homo sapiens with 12 samples.

Results

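Described here are 10 genes for transcriptional regulators of plasma cells and B cells and for cereblon, in human multiple myeloma cells. They are IRF4, PRDM1, POU2AF1, POU2F2, IKZF1, IKZF3, CRBN, BHLHA15, PAX5 and MEF2C. They were chosen by name and found in both expression tables, 10 of 61806 rows in LP-1 and 10 of 19130 rows in U266. LP-1 and U266 are established myeloma lines, grown from malignant plasma cells and labelled as wild type. Each line received dihydroartemisinin (DHA), an artemisinin antimalarial whose endoperoxide is opened by ferrous iron and heme, at its IC50 for 12 h, or an equal amount of the solvent DMSO. The groups were LP-1 with DHA, LP-1 with DMSO, U266 with DHA and U266 with DMSO, with 3 libraries in each. The sources used here state no concentration of DHA, and nothing says that replicates came from separate cultures, so p-values measure the spread between these libraries, which may be technical.

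Plasma cells arise when activated B cells give up the B cell programme held by PAX5 and switch to antibody secretion. IRF4 and PRDM1 (BLIMP-1) drive that switch, and myeloma cells stay dependent on IRF4. IKZF1 (Ikaros) and IKZF3 (Aiolos) act upstream of IRF4 in myeloma. Both are destroyed by the CRL4 ubiquitin ligase when lenalidomide or pomalidomide binds its substrate receptor cereblon, the product of CRBN. OCT2 (POU2F2) binds the octamer sequence, and OCA-B (POU2AF1) is its coactivator without DNA binding of its own.

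Values are FPKM, reads scaled by gene length and library size, so levels of different genes within a library can be compared per length. The tables of the 2 lines were made separately, and levels are not compared across them. In bulk RNA, fewer cells with a transcript and less of it per cell cannot be told apart. Libraries held about 14.2 to 17.5 M reads in genes for LP-1 with DHA, 13.4 to 15.4 M for LP-1 with DMSO, 10.3 to 16.4 M for U266 with DHA and 14.5 to 21.8 M for U266 with DMSO. These depths were recovered from the steps of low values, as the smallest depth that gives whole reads. Of 6 plasma cell markers, 5 reached 1 FPKM in each line, with SLAMF7 under it in LP-1 and CD38 under it in U266. FGFR3, activated by translocation in LP-1, averaged 177 FPKM with DHA and 240 FPKM with DMSO there, and CCND1, activated in U266, averaged 144 and 235 FPKM in U266. Libraries stood apart in each line. In U266, DHA replicate 3 listed 18399 genes above 0, against 14682 to 14992 in the other libraries, and 2032 of those genes were at 0 in all other U266 libraries. In LP-1, DMSO replicate 3 differed from the other DMSO libraries by a mean chi-square per gene of 51.0 and 85.4, against 7.95 between those 2. Pairs of LP-1 DHA libraries had 1.76 to 2.85, so the spread was unequal between the LP-1 groups. Ribosomal protein genes made up 10.5% of the summed FPKM of LP-1 DMSO replicate 3, against 5.78 to 7.22% in the other LP-1 libraries.

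Promoters of the genes are in RefSeq (GRCh38.p14) for 8 of the 10 genes, as 18 windows of 250 bases before to 50 after a start. They were searched on both strands for the octamer ATGCAAAT, since POU2F2 and POU2AF1 are themselves among the genes that moved. Also searched were the ETS-IRF composite motif and the interferon response element core, both of IRF factors and overlapping in part, an NF-kB motif, TGATGNAA (amino acid response element core), TGACNNNGC (antioxidant response element core) and TGACGTCA (CRE core). The octamer was found in BHLHA15, on the reverse strand beginning 35 bases before the start, and in 1 of the MEF2C windows, beginning 60 bases before it. It is present in 1.77% of all 35116 promoters, against 2.82% for the ETS-IRF motif, 3.57% for the interferon motif, 1.61% for NF-kB, 3.62% for TGATGNAA, 13.3% for TGACNNNGC and 1.85% for TGACGTCA. TGATGNAA was found in another MEF2C window and TGACNNNGC in 1 IKZF1 window, and the other 4 motifs in none. The window of IRF4, the gene with the largest rise, held no match to any of the 7 motifs, which says only that these letters are not in it. The sequences are printed 5′ to 3′ on the gene's strand, and capitals mark the octamer on its reverse strand.
BHLHA15, chr7:98211189-98211488 (+): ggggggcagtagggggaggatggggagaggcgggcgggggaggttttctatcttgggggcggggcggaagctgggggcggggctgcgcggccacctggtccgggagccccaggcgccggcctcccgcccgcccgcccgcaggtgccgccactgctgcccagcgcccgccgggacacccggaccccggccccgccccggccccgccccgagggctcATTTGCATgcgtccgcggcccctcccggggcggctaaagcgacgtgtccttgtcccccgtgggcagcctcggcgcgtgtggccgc
MEF2C, chr5:88824295-88824594 (-): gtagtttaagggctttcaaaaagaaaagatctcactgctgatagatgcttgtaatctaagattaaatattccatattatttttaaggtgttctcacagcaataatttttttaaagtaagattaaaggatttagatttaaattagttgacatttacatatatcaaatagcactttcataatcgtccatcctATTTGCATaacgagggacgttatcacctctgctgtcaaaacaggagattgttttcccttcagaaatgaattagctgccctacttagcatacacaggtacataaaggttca
IRF4, chr6:391502-391801 (+): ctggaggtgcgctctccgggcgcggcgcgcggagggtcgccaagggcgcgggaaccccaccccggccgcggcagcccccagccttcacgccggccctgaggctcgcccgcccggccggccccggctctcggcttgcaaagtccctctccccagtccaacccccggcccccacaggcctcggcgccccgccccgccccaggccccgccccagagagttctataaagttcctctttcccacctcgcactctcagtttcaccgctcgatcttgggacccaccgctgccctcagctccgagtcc

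DHA against DMSO within each line asks which of these genes the drug moved. In LP-1, IRF4, PRDM1, IKZF3 and CRBN rose and POU2AF1 fell, while in U266, BHLHA15 and CRBN rose and PRDM1, POU2AF1, POU2F2, IKZF1, IKZF3 and MEF2C fell. In LP-1, 8 of the 10 genes reached 1 FPKM in at least 3 of 6 libraries and were tested; limma called 4 higher and 1 lower at an adjusted p of 0.05 and left 3 uncalled. Over all 12514 genes tested in LP-1, 40.2% were called, 20.0% higher and 20.2% lower. In U266, 9 of the 10 were tested; limma called 2 higher and 6 lower and left 1 uncalled. Over all 10422 genes tested in U266, 40.7% were called, 21.1% higher and 19.6% lower. The median log2 change of the tested genes was 0.34 in LP-1, beside 0.01 over all genes tested, and -0.40 in U266, beside 0.02. Groups did not overlap for 6 of the 8 in LP-1, 5 higher and 1 lower with DHA. Of all genes tested in LP-1, 58.8% had separate groups, 30.2% higher and 28.6% lower. Groups did not overlap for 8 of the 9 in U266, 2 higher and 6 lower, where 51.5% of all genes did, 27.6% higher and 23.9% lower. With LP-1 libraries rescaled without immunoglobulin and mitochondrially encoded genes, 2832 genes rose and 1840 fell in place of 2504 and 2523, and the median over all genes moved to 0.13. On that scale IRF4 was at 1.81, PRDM1 at 0.82, IKZF3 at 0.78, CRBN at 0.40 and POU2AF1 at -0.75, and all 5 calls held. In LP-1 the 4 rises became 1 without DHA replicate 1, 2 or 3, 2 without DMSO replicate 1 and up to 5 with another library left out. Over all LP-1 genes, the 2504 rises became 1367, 1377 and 1399 without DHA replicate 1, 2 or 3.

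**Figure D1:**
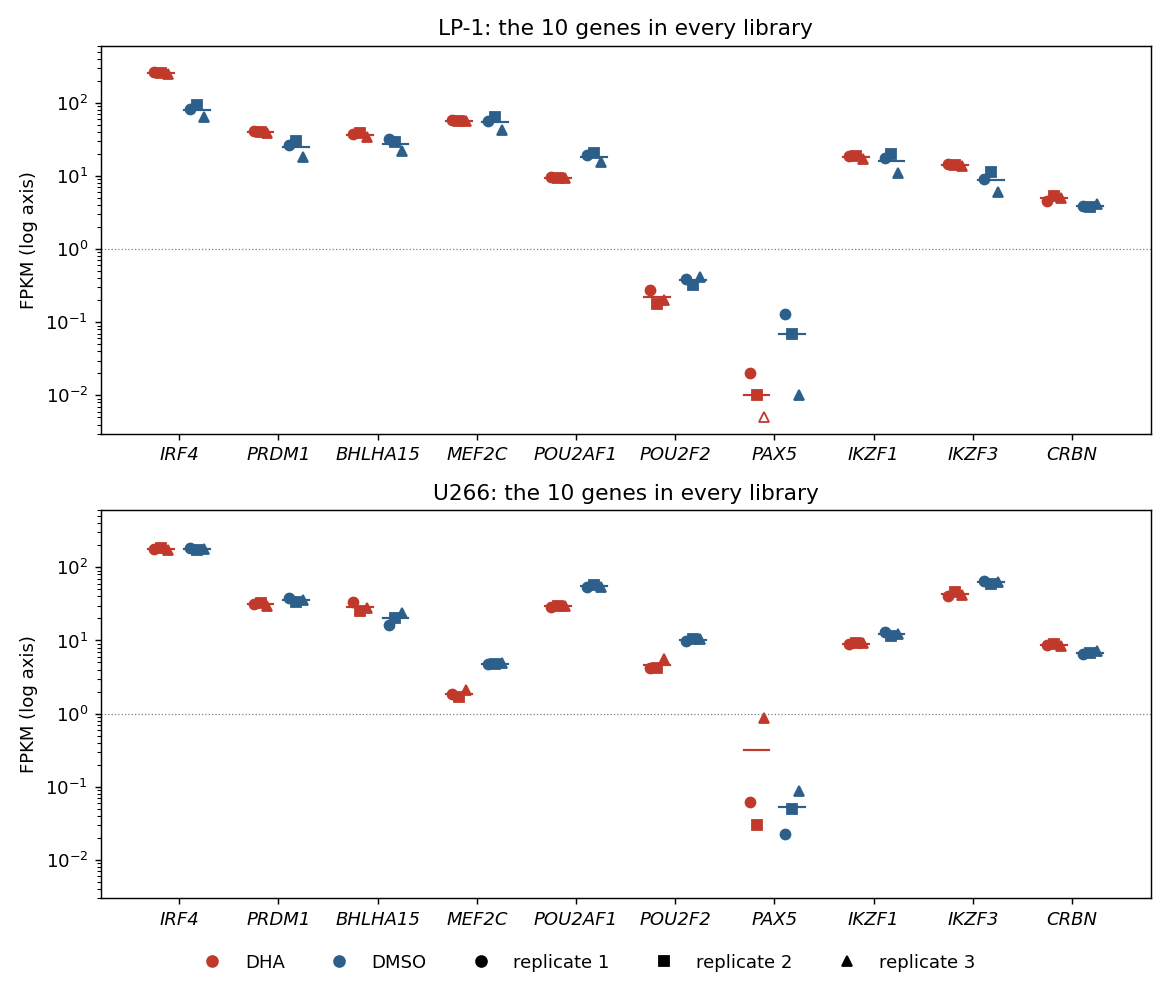
FPKM of the 10 genes in every library on a log axis, LP-1 above and U266 below, with DHA in red left of DMSO in blue; short lines are group means of 3 libraries, the dotted line is 1 FPKM, and the open triangle is a value listed at 0 drawn at the foot of the axis. IRF4 stands at 244 to 260.0 FPKM with DHA and 64.2 to 92.1 FPKM with DMSO in LP-1, and the groups lie on each other in U266.

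IRF4 (ENSG00000137265, chromosome 6, 391739 to 411447 in GRCh38, GENCODE v29, as for all loci here), the factor on which myeloma cells depend, had 260.0, 254 and 244 FPKM in LP-1 with DHA, against 83.5, 92.1 and 64.2 FPKM with DMSO. Every DHA library lay far above every DMSO library. The log2 change was 1.66 (95% interval 1.32 to 2.01, limma adjusted p = 0.000513), and 80 of the other tested LP-1 genes had a larger log2 change. In U266 IRF4 had 180.0, 186 and 171 FPKM with DHA, against 186, 174 and 177 FPKM with DMSO. There the groups overlapped, the log2 change was 0.00 and its interval ran from -0.11 to 0.11. The change in LP-1 exceeded that in U266 by 1.66 (95% interval 1.33 to 2.00, limma adjusted p = 1.88e-05), and 44 of 8930 genes tested had a difference between the lines of larger size. Across those 8930 genes, 34.5% passed this test of a difference between the lines, 18.5% with the larger value in LP-1 and 16.0% with the smaller, and of the 8 genes tested in both lines 4 did, IRF4, IKZF3, MEF2C and PRDM1. In U266 the direction of IRF4 turned with the scaling and with libraries left out, between -0.027 and 0.074.

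PRDM1 (ENSG00000057657, chromosome 6, 106086320 to 106109939), the repressor that shuts down the B cell programme, had 40.6, 39.9 and 38.1 FPKM in LP-1 with DHA, against 26.5, 29.7 and 18.1 FPKM with DMSO. All DHA values were above all DMSO values (log2 change 0.68, 95% interval 0.26 to 1.11, limma adjusted p = 0.0236). Without DHA replicate 1, 2 or 3 the log2 change was 0.66, 0.68 and 0.71. The call was lost without DHA replicate 1, 2 or 3 (limma adjusted p = 0.0814, 0.0784 and 0.069) or DMSO replicate 1 (0.0507), and with no filter (0.0583), within 0.00133 to 0.0814 over all alternatives. In U266 PRDM1 had 31.4, 32.3 and 29.7 FPKM with DHA, against 38.1, 33.3 and 35.6 FPKM with DMSO. The groups were separate by a narrow gap, and the log2 change was -0.19 (95% interval -0.32 to -0.06, limma adjusted p = 0.0287). That call was lost without DHA replicate 1 (-0.20, limma adjusted p = 0.0546) or 3 (-0.16, 0.0755) or DMSO replicate 1 (-0.14, 0.116) or 3 (-0.19, 0.077), over a range of 0.0151 to 0.116. It was also lost with no filter (0.0739), quantile normalization (0.0523) and no variance trend (0.074). The difference between the lines was 0.87 (95% interval 0.45 to 1.29, limma adjusted p = 0.00502).

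BHLHA15 (ENSG00000180535, chromosome 7, 98211427 to 98212979), also called MIST1, is a basic helix-loop-helix factor of secretory cells. It had 37.1, 38.2 and 34.1 FPKM in LP-1 with DHA, against 31.6, 28.9 and 22.1 FPKM with DMSO. The groups did not overlap, but the log2 change of 0.41 did not pass (95% interval 0.07 to 0.74, limma adjusted p = 0.057). It passed without DMSO replicate 1 (0.51, limma adjusted p = 0.0478) or 3 (0.26, 0.0183), with TMM-style scaling (0.0449) and with the replicate number as a block (0.0426), over 0.0183 to 0.168. In U266 it had 33.9, 25.5 and 28.0 FPKM with DHA, against 16.0, 20.5 and 23.6 FPKM with DMSO. The U266 groups were also separate and BHLHA15 rose (log2 change 0.53, 95% interval 0.24 to 0.82, limma adjusted p = 0.00919), a call lost with no filter (0.063, over 0.00303 to 0.063). The difference between the lines was -0.12 with an interval of -0.59 to 0.35.

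MEF2C (ENSG00000081189, chromosome 5, 88717117 to 88904257), a MADS-box factor of B cell signalling, had 57.4, 55.8 and 55.9 FPKM in LP-1 with DHA, against 57.1, 63.8 and 42.6 FPKM with DMSO. The DHA values lay inside the DMSO range (log2 change 0.07, 95% interval -0.29 to 0.43). Without DMSO replicate 3 the value was -0.10. In U266 MEF2C was a low transcript, at 1.85, 1.71 and 2.10 FPKM with DHA, against 4.73, 4.70 and 4.86 FPKM with DMSO. It fell there (log2 change -1.001, 95% interval -1.22 to -0.78, limma adjusted p = 3.42e-05). Its change in LP-1 exceeded that in U266 by 1.07 (95% interval 0.71 to 1.43, limma adjusted p = 0.000564).

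POU2AF1 (ENSG00000110777, chromosome 11, 111352252 to 111455630), the octamer coactivator OCA-B, fell in both lines. In LP-1 it had 9.73, 9.24 and 9.33 FPKM with DHA, against 19.2, 20.7 and 15.3 FPKM with DMSO. In U266 it had 28.9, 29.7 and 29.7 FPKM with DHA, against 54.6, 56.5 and 54.3 FPKM with DMSO. Every DHA library was below every DMSO library in each line. The DHA mean was 51.3% of the DMSO mean in LP-1 and 53.4% in U266. The log2 change was -0.88 in each (LP-1, 95% interval -1.16 to -0.60, limma adjusted p = 0.00225; U266, 95% interval -0.98 to -0.78, limma adjusted p = 3.05e-07). Both calls held under all 14 alternatives of their line, and the difference between the lines had an interval of -0.28 to 0.27.

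POU2F2 (ENSG00000028277, chromosome 19, 42086110 to 42196585), which encodes the octamer-binding OCT2, was expressed in U266, at 4.14, 4.18 and 5.58 FPKM with DHA, against 9.93, 10.3 and 10.5 FPKM with DMSO. It fell there (log2 change -1.01, 95% interval -1.23 to -0.78, limma adjusted p = 3.38e-05), and the DHA mean was 45.2% of the DMSO mean. In LP-1 it had 0.28, 0.18 and 0.20 FPKM with DHA, against 0.39, 0.32 and 0.41 FPKM with DMSO, or about 25.8 to 38.0 reads with DHA and 39.2 to 57.5 reads with DMSO per library. These values are under the filter and were not tested. POU2F1, which encodes the broadly expressed OCT1, did not pass in either line (log2 change 0.00 in LP-1, limma adjusted p = 0.992, and -0.08 in U266, 0.517). Of the 6 genes of the OCT and OCA-B family, 2 were tested in LP-1 and 3 in U266.

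PAX5 (ENSG00000196092, chromosome 9, 36833275 to 37034185), the factor of B cell identity, was near the limit of detection in most libraries. It had 0.02, 0.01 and 0 FPKM in LP-1 with DHA, against 0.13, 0.07 and 0.01 FPKM with DMSO. In U266 it had 0.0623, 0.0298 and 0.869 FPKM with DHA, against 0.0226, 0.0491 and 0.0886 FPKM with DMSO. A count of 3 reads, the upper limit that 0 reads allows (counting error only), corresponds to 0.0147 to 0.0311 FPKM for PAX5 in U266 and 0.0184 to 0.0239 FPKM in LP-1. Of the low whole counts in U266, 50.1% were even in DHA replicate 3 and 75.5 to 77.5% in the other libraries. If reads there were counted in pairs, the U266 limit is too low, which was not tested. The value of 0.869 FPKM, about 133 reads, came from U266 DHA replicate 3, where T and NK cell markers and monocyte markers were high as well. The 6 T and NK cell markers summed to 0.834, 0.58 and 9.88 FPKM in U266 with DHA and to 1.11 to 1.70 FPKM with DMSO. The 5 monocyte and macrophage markers summed to 1.51, 0.648 and 5.89 FPKM with DHA and to 0.639 to 0.803 FPKM with DMSO. Replicate 3 did not stand out for 2 other marker sets. Erythroid markers summed to 6.98, 7.28 and 7.56 FPKM with DHA and to 10.2 to 11.55 FPKM with DMSO. Stromal and endothelial markers summed to 5.15, 1.70 and 4.10 FPKM with DHA and to 1.02 to 1.45 FPKM with DMSO. The part of other cells in the PAX5 value was not tested. Without DHA replicate 3, all other U266 calls on the 10 genes held except that of PRDM1.

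IKZF1 and IKZF3, paralogous zinc finger factors, were not ordered alike in the lines. IKZF3 (ENSG00000161405, chromosome 17, 39757715 to 39864188) had 14.5, 14.2 and 13.6 FPKM in LP-1 with DHA, against 9.13, 11.3 and 6.11 FPKM with DMSO. It rose there (log2 change 0.65, 95% interval 0.18 to 1.12, limma adjusted p = 0.0379). Without DHA replicate 1, 2 or 3 the log2 change was 0.63, 0.65 and 0.68. The call was lost without DHA replicate 1, 2 or 3 (limma adjusted p = 0.112, 0.106 and 0.0955), DMSO replicate 1 (0.082) and with no filter (0.0889), over 0.00758 to 0.112. In U266 IKZF3 had 40.8, 45.8 and 41.2 FPKM with DHA, against 65.8, 60.1 and 63.1 FPKM with DMSO. There it fell (log2 change -0.55, 95% interval -0.68 to -0.43, limma adjusted p = 4.68e-05), with all DHA values below all DMSO values. The difference between the lines was 1.21 (95% interval 0.75 to 1.67, limma adjusted p = 0.00125).

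IKZF1 (ENSG00000185811, chromosome 7, 50304068 to 50405101) had 18.5, 18.6 and 16.9 FPKM in LP-1 with DHA, against 17.4, 20.1 and 11.1 FPKM with DMSO, and the groups overlapped (log2 change 0.18, 95% interval -0.31 to 0.68). The low value was that of DMSO replicate 3, and without it the log2 change was -0.05. In U266 IKZF1 had 8.88, 9.12 and 9.23 FPKM with DHA, against 12.97, 11.6 and 12.2 FPKM with DMSO, and it fell (log2 change -0.40, 95% interval -0.54 to -0.26, limma adjusted p = 0.000744). Its difference between the lines, 0.58, did not pass (95% interval 0.11 to 1.06, limma adjusted p = 0.0567). It passed with TMM-style scaling (limma adjusted p = 0.0422), with the replicate number as a block (0.0313), without LP-1 DMSO replicate 2 (0.75, 0.00681) and without LP-1 DMSO replicate 3 (0.35, 0.0099), over 0.00681 to 0.115. Of the other Ikaros factors, IKZF5 rose in both lines (log2 change 0.73 in LP-1 and 0.49 in U266, limma adjusted p = 0.0034 and 0.000867). In LP-1 the 2 rises in the family became 1 without DHA replicate 1, 2 or 3 or DMSO replicate 1. IKZF4 did not pass in either line, and IKZF2 was tested in U266 alone and did not pass.

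CRBN (ENSG00000113851, chromosome 3, 3144628 to 3179727) encodes cereblon, the receptor that lenalidomide and pomalidomide bind. It had 4.56, 5.31 and 5.08 FPKM in LP-1 with DHA, against 3.90, 3.75 and 4.16 FPKM with DMSO. In U266 it had 8.73, 8.85 and 8.39 FPKM with DHA, against 6.61, 6.67 and 7.10 FPKM with DMSO. The groups were separate in each line. The log2 change was 0.28 in LP-1 (95% interval 0.07 to 0.48, limma adjusted p = 0.0429) and 0.31 in U266 (95% interval 0.16 to 0.46, limma adjusted p = 0.00462). The U266 call held under its 14 alternatives. In LP-1 the log2 change was 0.33, 0.24 and 0.26 without DHA replicate 1, 2 or 3. The LP-1 call held under 4 of 13 and was lost without DHA replicate 1, 2 or 3 (limma adjusted p = 0.0714, 0.162 and 0.139), DMSO replicate 1 or 2 (0.112 and 0.0811), and with the replicate number as a block (0.0902). It was also lost with no filter (0.0817), TMM-style scaling (0.0526) and quantile normalization (0.0814), over 0.0149 to 0.162. The difference between the lines was -0.03 with an interval of -0.26 to 0.19.

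**Figure D2:**
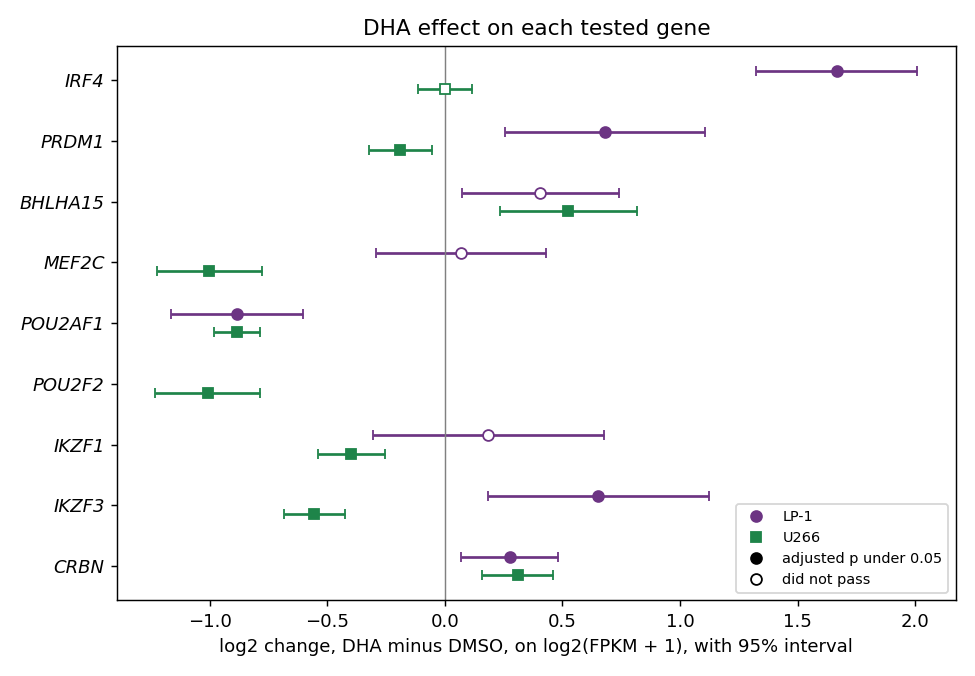
Log2 change (DHA minus DMSO, on log2(FPKM + 1)) of the tested genes with 95% intervals from limma, LP-1 as circles above U266 as squares, filled where the adjusted p was under 0.05. POU2AF1 is at -0.88 in both lines, CRBN at 0.28 and 0.31, and IRF4 and IKZF3 lie at 1.66 and 0.65 in LP-1 and at 0.00 and -0.55 in U266.

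By level, IRF4 was the highest of the 10 genes in all 4 groups. In LP-1 with DHA it was followed by MEF2C, PRDM1, BHLHA15, IKZF1, IKZF3, POU2AF1, CRBN, POU2F2 and PAX5, and PRDM1 and BHLHA15 were the neighbours whose libraries overlapped. In LP-1 with DMSO the order was IRF4, MEF2C, BHLHA15, PRDM1, POU2AF1, IKZF1, IKZF3, CRBN, POU2F2 and PAX5, with overlap between each pair of neighbours from BHLHA15 down to IKZF3. In U266 with DHA it was IRF4, IKZF3, PRDM1, POU2AF1, BHLHA15, IKZF1, CRBN, POU2F2, MEF2C and PAX5, with overlap among PRDM1, POU2AF1 and BHLHA15. In U266 with DMSO no neighbours overlapped in the order IRF4, IKZF3, POU2AF1, PRDM1, BHLHA15, IKZF1, POU2F2, CRBN, MEF2C and PAX5.

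The IRF genes did not move as a block in either line. Of 7 tested IRF genes in LP-1, 4 were higher and 3 lower, with a median log2 change of 0.41. Without DHA replicate 1 or 2 these became 2 and 0, and the falls became 1 without DHA replicate 3 or DMSO replicate 1. In U266 without DHA replicate 3 the falls were 2 in place of 1. IRF9 rose in both lines, to 1.85 ± 0.134 FPKM with DHA against 0.887 ± 0.17 FPKM with DMSO in LP-1 (mean ± SD, n = 3 each, here and below), and to 2.32 ± 0.245 FPKM with DHA against 0.963 ± 0.295 FPKM with DMSO in U266. In LP-1 IRF3 had 14.3 ± 0.474 FPKM with DHA against 24.2 ± 5.56 FPKM with DMSO (log2 change -0.70, limma adjusted p = 0.0148). The IRF3 call was lost without DHA replicate 1 or 2 (limma adjusted p = 0.0577 each, over 0.00303 to 0.0577). Of 8 in U266, 3 were higher, 1 lower and 4 uncalled (median 0.09). The antiviral factor IRF7 rose there to 21.0 ± 0.975 FPKM with DHA, against 5.70 ± 0.614 FPKM with DMSO (log2 change 1.72). It rose in LP-1 as well (log2 change 0.54, limma adjusted p = 0.0165), a call lost without DHA replicate 1 or 2 (0.0664 and 0.0713, over 0.0121 to 0.0713). Of 7 genes for DNA-binding partners of IRF4, 3 were tested in LP-1, where 2 were lower and 1 uncalled (66.7% called). In U266, 5 were tested, of which 1 was higher, 3 lower and 1 uncalled (80.0% called). TCF3, an E protein that also pairs with BHLHA15, fell by 0.67 on the log2 scale in each line (limma adjusted p = 0.00335 in LP-1 and 2.14e-05 in U266). JUNB, an AP-1 subunit, fell to 14.4 ± 0.804 FPKM in LP-1 with DHA, against 58.0 ± 9.79 FPKM with DMSO, and to 35.8 ± 1.12 FPKM in U266 with DHA, against 50.9 ± 3.33 FPKM with DMSO.

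Of 8 tested genes linked to IRF4 in plasma cells in LP-1, 4 were higher, 2 lower and 2 uncalled (median 0.22), and of 8 in U266, 1 was higher, 5 lower and 2 uncalled (median -0.43). In each line 75.0% were called, beside 40.2% of all genes tested in LP-1 and 40.7% in U266. KLF2, a quiescence factor of lymphocytes, fell in both (log2 change -1.35 in LP-1 and -1.75 in U266, limma adjusted p = 0.000958 and 1.61e-08). The survival kinase PIM2 also fell in both, to 190 ± 4.50 FPKM with DHA against 341 ± 29.5 FPKM with DMSO in LP-1, and to 204 ± 5.60 FPKM with DHA against 383 ± 11.4 FPKM with DMSO in U266. MYC rose in LP-1, to 284 ± 11.5 FPKM with DHA against 207 ± 23.3 FPKM with DMSO (log2 change 0.46, limma adjusted p = 0.0204). That call was lost without DHA replicate 1, 2 or 3 (limma adjusted p = 0.0925, 0.087 and 0.0636) and with no filter (0.0579), over 0.00235 to 0.0925. MYC fell to 2.60 ± 0.684 FPKM in U266 with DHA, against 10.0 ± 0.681 FPKM with DMSO (log2 change -1.63). The cell cycle kinase CDK6 rose in LP-1 to 199 ± 11.5 FPKM, against 111 ± 38.2 FPKM (log2 change 0.90, limma adjusted p = 0.0306), and in U266 its log2 change of 0.16 did not pass. The CDK6 call was lost without DHA replicate 1, 2 or 3 (limma adjusted p = 0.0993, 0.0882 and 0.081) or DMSO replicate 1 (0.0743) and with no filter (0.0776), over 0.00647 to 0.0993. The 4 rises of this list in LP-1 became 1 without DHA replicate 1, 2 or 3 and 2 without DMSO replicate 1.

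Plasma cell genes were mostly lower where they passed. Of 16 tested in LP-1, 2 were higher, 8 lower and 6 uncalled (median log2 change -0.59), and of 15 in U266, 1 was higher, 7 lower and 7 uncalled (median -0.30). Called were 62.5% in LP-1 and 53.3% in U266, beside 40.2% and 40.7% of all genes tested. Among all genes tested, 20.2% were lower in LP-1 and 19.6% in U266. SDC1, the plasma cell surface proteoglycan CD138, fell to 5.16 ± 0.484 FPKM in LP-1 with DHA, against 30.9 ± 1.72 FPKM with DMSO. It fell in U266 as well, to 88.4 ± 6.02 FPKM with DHA against 192 ± 5.15 FPKM with DMSO. The RNA polymerase II elongation factor ELL2 rose in LP-1, to 96.1 ± 1.69 FPKM against 62.9 ± 6.75 FPKM. TENT5C, a poly(A) polymerase mutated in myeloma, fell in U266 to 73.8 ± 1.94 FPKM with DHA, against 155 ± 6.47 FPKM with DMSO. In U266 HERPUD1, of ER-associated degradation, rose (log2 change 0.51). In LP-1 the 8 falls became 5 without DHA replicate 1, 2 or 3, and the 2 rises became 1 without DHA replicate 1 or 2 and 4 without DMSO replicate 3. In U266 the rise became 2 without DHA replicate 3.

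B cell genes that PAX5 drives or that plasma cells silence were largely below the filter, with 6 of 20 tested in LP-1 and 8 of 20 in U266. In LP-1, 1 was higher, 3 lower and 2 uncalled, and in U266, 1 was higher, 2 lower and 5 uncalled. Called were 66.7% in LP-1 and 37.5% in U266, beside 40.2% and 40.7% of all genes tested. BACH2, a repressor of PRDM1, rose in LP-1 to 7.65 ± 0.0924 FPKM with DHA, against 2.80 ± 0.882 FPKM with DMSO (log2 change 1.21, limma adjusted p = 0.00261), and in U266 its log2 change of 0.23 did not pass. BCL6, which opposes PRDM1 in germinal centre cells, rose in U266 to 4.74 ± 0.26 FPKM with DHA, against 2.53 ± 0.272 FPKM with DMSO. Of 7 E protein and ID genes, 6 were tested in each line. In LP-1, 1 was higher, 4 lower and 1 uncalled, or 83.3% called. In U266, 1 was higher, 3 lower and 2 uncalled, or 66.7% called. ID3, which sequesters E proteins, fell in both (log2 change -1.53 in LP-1 and -1.38 in U266). Its relatives ID1 and ID2 fell in LP-1, ID1 to 11.2 ± 0.336 FPKM with DHA against 126 ± 46.2 FPKM with DMSO and ID2 to 14.2 ± 1.14 FPKM with DHA against 58.2 ± 6.58 FPKM with DMSO. Of 5 genes known in mouse as targets of BHLHA15, 3 were tested in each line, where 2 were lower and 1 uncalled in LP-1, and 1 was higher, 1 lower and 1 uncalled in U266. The called share of these targets was 66.7% in each line. RAB26 had 0.983 ± 0.329 FPKM in LP-1 with DHA, against 11.1 ± 2.21 FPKM with DMSO, and RAB3D had 0.873 ± 0.0814 FPKM with DHA, against 4.17 ± 1.35 FPKM with DMSO. RAB26 also fell in U266 (log2 change -0.72), where RAB3D was at 12.9 FPKM with DHA and 13.2 FPKM with DMSO. COPZ2, a subunit of the COPI vesicle coat, rose in U266 to 5.61 ± 1.56 FPKM with DHA, against 2.72 ± 0.576 FPKM with DMSO (log2 change 0.82, limma adjusted p = 0.00359), and in LP-1 its log2 change of 0.24 did not pass. Without LP-1 DMSO replicate 3 the falls among B cell genes were 5, and without U266 DHA replicate 3 they were 4. The rise among E protein and ID genes in LP-1 was lost without DHA replicate 1, 2 or 3.

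In the PRDM family, PRDM4 rose in both lines (log2 change 0.72 in LP-1 and 0.43 in U266). In the list of MEF2 factors and class IIa HDACs, MEF2A rose in both lines (log2 change 0.81 in LP-1 and 0.59 in U266, limma adjusted p = 0.0098 and 0.000131), and 1 of 7 fell in LP-1 and 3 of 7 in U266. Called were 28.6% in LP-1 and 71.4% in U266, beside 40.2% and 40.7% of all genes tested. HDAC7, a corepressor of MEF2 factors, fell in LP-1 to 8.87 ± 0.38 FPKM with DHA, against 15.4 ± 0.566 FPKM with DMSO, and in U266 its log2 change of -0.13 did not pass. In the MEF2 list the LP-1 fall became 3 without DMSO replicate 3, and the 2 U266 rises became 1 without DHA replicate 1 or 3 or DMSO replicate 1 or 3.

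Of 22 genes of the CRL4 ligase, neddylation and the COP9 signalosome, all were tested in each line. In LP-1, 5 were higher, 2 lower and 15 uncalled (median -0.03), and in U266, 2 were higher, 7 lower and 13 uncalled (median -0.04). The called share was 31.8% in LP-1 and 40.9% in U266, beside 40.2% and 40.7% of all genes tested in those lines. DDB1, the adaptor that carries cereblon, fell in U266 to 23.7 ± 0.451 FPKM with DHA, against 32.6 ± 0.761 FPKM with DMSO (log2 change -0.44, limma adjusted p = 5.22e-05), and did not pass in LP-1 (0.29, 0.131). UBE2G1, the ubiquitin-conjugating enzyme that extends chains on cereblon substrates, fell in U266 to 14.8 ± 0.297 FPKM, against 21.9 ± 0.957 FPKM. It was called lower in LP-1 too (log2 change -0.23, limma adjusted p = 0.0435). That LP-1 call was lost in 10 of 14 alternatives, among them without DHA replicate 1, 2 or 3 (0.107, 0.178 and 0.147) or DMSO replicate 1 or 2 (0.118 and 0.0739) and when rescaled (-0.089, 0.556), over 0.00639 to 0.556. In LP-1 COPS3 of the signalosome rose to 45.9 ± 0.606 FPKM, against 28.7 ± 2.61 FPKM. Of 19 tested substrates and clients of cereblon in LP-1, 4 were higher, 3 lower and 12 uncalled (median 0.14), and of 21 in U266, 4 were higher, 5 lower and 12 uncalled (median -0.14). Among these, 36.8% were called in LP-1 and 42.9% in U266. Casein kinase gene CSNK1A1, a lenalidomide target, rose in both lines (log2 change 0.59 in LP-1 and 0.24 in U266, limma adjusted p = 0.00394 and 0.00443). ZNF692 fell in LP-1 (log2 change -0.68) and SALL4 in U266 (-0.63). These counts moved with single libraries. The 5 rises among ligase genes in LP-1 became 3 without DHA replicate 1, 2 without DHA replicate 2 or 3 and 8 without DMSO replicate 3. The 2 falls there became 1 without DHA replicate 1, 2 or 3 or DMSO replicate 1 and 4 without DMSO replicate 3. In U266 the 2 ligase rises became 1 without DHA replicate 1 or 2 or DMSO replicate 1 or 3. Among substrates in LP-1 the 4 rises became 1 without DHA replicate 1, 2 or 3 and 2 without DMSO replicate 1, and the 3 falls became 1 without DHA replicate 1, 2 or 3 and 6 without DMSO replicate 3. Among substrates in U266 the 4 rises became 2 without DHA replicate 2 or DMSO replicate 2, and the 5 falls became 8 without DHA replicate 3.

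**Figure D3:**
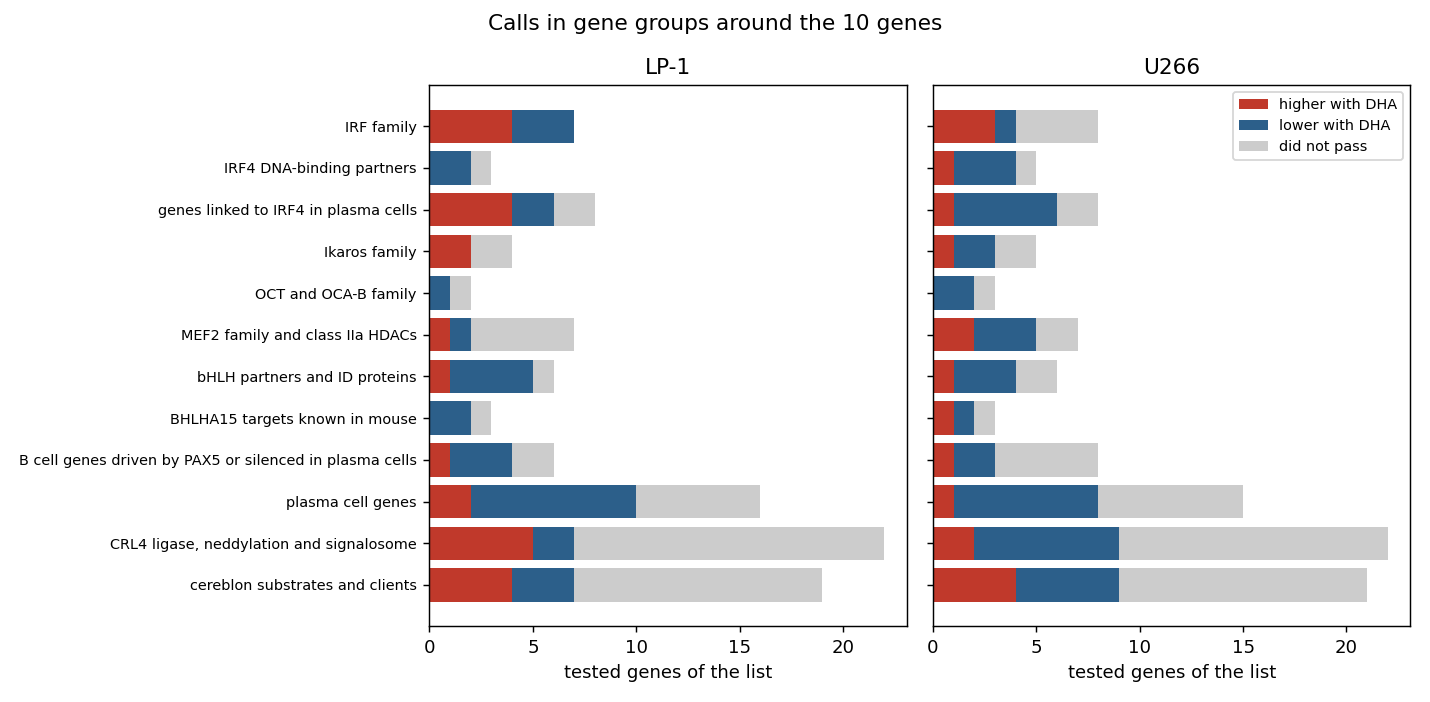
Number of tested genes in each of 12 groups around the 10 genes that were higher with DHA (red), lower with DHA (blue) or did not pass limma's adjusted p of 0.05 (grey), LP-1 left and U266 right. Plasma cell genes hold 2 rises and 8 falls in LP-1 and 1 rise and 7 falls in U266. Among all genes tested, 40.2% were called in LP-1 and 40.7% in U266.

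The genes whose log2(FPKM + 1), centred on the line mean, was most like that of each gene below over the 12 libraries are given as a description. The libraries are shared and DHA against DMSO makes up most of each pattern. For IRF4 these were SELENOI (Pearson r = 0.998), MSH3 (0.995) and CEMIP2 (0.995) among 8929 others, and SELENOI had log2 changes of 1.502 in LP-1 and -0.04 in U266. For POU2AF1 they were BIRC3 (r = 0.993), SELPLG (0.99) and GNAS (0.986), with BIRC3 at -0.92 in LP-1 and -0.83 in U266. PRDM1 was closest to IQGAP1 (r = 0.993), UGGT1 (0.992) and POGK (0.992), and IKZF3 to MBNL3 (0.992), HIPK2 (0.991) and TRIO (0.99). IKZF1 was closest to PLEC (r = 0.989), ARHGAP17 (0.977) and MSN (0.976), and MEF2C to ATP8B2 (0.988), KANK1 (0.987) and FASN (0.981). CRBN was closest to E2F6 (r = 0.975), UFM1 (0.969) and VCPKMT (0.969), and BHLHA15 to ZFYVE16 (0.948), ZNF699 (0.94) and ZC3H3 (0.929).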

How the data were processed

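RNA of 12 libraries was measured in 2 tables of FPKM, 1 for each line, as deposited by the authors. Per the submitters' processing notes the builds were GRCm38 and mm10, of mouse, although the tables list human genes. No source used here names the aligner, counting tool, annotation or use of strand. LP-1 rows were Ensembl IDs, of which 42054 were paired with a symbol, and U266 rows were symbols, of which 19095 were matched. Depth was found as the smallest read total at which low FPKM values times GENCODE v29 exon length fall on whole reads. The share of values no more than 0.1 read away from a whole number was 59.0 to 61.0% for LP-1, whose values have 2 decimals, and 94.6 to 95.8% for U266. Whole multiples of a depth give whole reads too, so depths are approximate, and limits cover counting error only.

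A gene was tested where 3 or more libraries of its line reached 1 FPKM. The test was limma 3.58.1 (R 4.3.3) on log2(FPKM + 1), with lmFit and trended eBayes, two-sided, and p-values were adjusted by Benjamini-Hochberg over every gene tested in that line, with a threshold of 0.05. A fold change on this scale understates the change of low genes. The lines were compared by an interaction contrast over 12 libraries and the 8930 genes kept in both tables. Alternatives were another pseudocount (0.1), leaving out the filter, keeping means of 5 FPKM or more, scaling by unweighted trimmed means (TMM-style), by quantiles or without immunoglobulin and mitochondrial genes, an untrended prior, the replicate number as a block, and each library left out. The code was tested on simulated data, with the pooled spread of each gene in its line given to both groups. For each fold size 100 genes were changed, among 12514 in LP-1 and 10422 in U266. In LP-1, 37% of 1.5-fold and 62% of 2-fold changes were recovered, against 95% and 99% in U266. Far more genes were called in the data, which makes the adjustment of p-values milder there, and the LP-1 groups differ in spread. These shares are therefore not the power of the tests reported here. Recovery was lower in LP-1 under these settings, so a gene that did not pass there says less than the same in U266. The 10 genes and the gene lists were chosen with earlier results of these data known. Named genes were the 10, up to 2 called genes per list, line and direction, the 3 genes most like each of the 10, and a few further list genes chosen after their values were seen. Counts for the PRDM family and the summed B cell markers are not reported here.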

Additional observations from a re-analysis of the deposited data

Results flagged for a closer look

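Of the 8 genes tested in both lines, 4 had a DHA effect that differed between LP-1 and U266 in limma's interaction contrast, where 34.5% of 8930 genes passed. The log2 change in LP-1 minus that in U266 was 1.66 for IRF4 (1.66 in LP-1 and 0.00 in U266). It was 1.21 for IKZF3 (0.65 in LP-1 and -0.55 in U266), 1.07 for MEF2C (0.07 and -1.001, LP-1 first) and 0.87 for PRDM1 (0.68 and -0.19, LP-1 first). These 4 calls held under all alternatives that gave a value, 19 for MEF2C and 20 for the others.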

How the results depend on the processing

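Fitted with the replicate number as a block, the counts of the 10 genes that rose or fell stayed within 1.5 times of those reported. The genes behind the LP-1 count changed, since CRBN lost its call (limma adjusted p = 0.0902) and BHLHA15 gained a call (0.0426). Same-numbered libraries were not shown to be paired, since their deviations correlated at 0.07, 0.02 and 0.18 in LP-1 and at -0.04, -0.08 and -0.02 in U266. The block moved the numbers of all genes called in LP-1 to 2267 higher and 2292 lower. In LP-1, 2504 genes rose and 2523 fell. With a mean of at least 5 FPKM these were 1664 and 1370, where fewer genes were tested. With 1 library left out they were 1367 to 3499 and 1543 to 3574. The 4 rises among the 10 genes in LP-1 became 1 with no filter and 1 to 5 with 1 library left out, and the 2 rises in U266 became 1 with no filter. Genes with a lower effect in LP-1 than in U266 numbered 1431, then 711 with a mean of at least 5 FPKM, where fewer genes were tested, and 928 when rescaled. Rescaling moved the median log2 change over all genes from 0.01 to 0.13 in LP-1 and left it at 0.02 in U266. The part of this shift in the count was not tested. Values near 0 changed sign. In U266 IRF4 was at -0.013 with TMM-style scaling and -0.0016 when rescaled, and between -0.027 and 0.032 with 1 library left out. In LP-1 IKZF1 ran from -0.051 to 0.35 and MEF2C from -0.096 to 0.19 with 1 library left out. The difference between the lines moved to 0.0039 with TMM-style scaling and 0.14 when rescaled for POU2AF1, to 0.088 when rescaled for CRBN and to 0.024 when rescaled for BHLHA15. With 1 library left out it ran from -0.12 to 0.085 for POU2AF1, from -0.072 to 0.019 for CRBN and from -0.26 to 0.025 for BHLHA15. PAX5 was left untested in both lines by the filter of 1 FPKM, at about 0 to 16.3 reads per library in LP-1. In U266 it was at about 4.0 to 12.0 reads, apart from about 133 in DHA replicate 3. POU2F2 in LP-1, at about 25.8 to 57.5 reads per library, was left untested by the filter of 1 FPKM.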

Other observations

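Ratios of levels within a library, chosen after the values were seen and given with no test, do not depend on the scaling between libraries. The ratio of IKZF3 to IKZF1 in FPKM was 0.761 to 0.806 in LP-1 with DHA and 0.526 to 0.563 with DMSO, and 4.46 to 5.02 in U266 with DHA and 5.07 to 5.16 with DMSO. The ratio of IRF4 to POU2AF1 was 26.2 to 27.5 in LP-1 with DHA and 4.19 to 4.46 with DMSO, and 5.76 to 6.25 in U266 with DHA and 3.07 to 3.40 with DMSO. The ratio of IRF4 to PRDM1 was 6.37 to 6.41 in LP-1 with DHA and 3.10 to 3.55 with DMSO, and 5.73 to 5.76 in U266 with DHA and 4.87 to 5.22 with DMSO. LP-1 DMSO replicate 3, the lowest DMSO library for IRF4, PRDM1, POU2AF1, IKZF1, IKZF3, MEF2C and BHLHA15, had ratios of 0.553 for IKZF3 to IKZF1, 4.19 for IRF4 to POU2AF1 and 3.55 for IRF4 to PRDM1. The last was the highest and the second the lowest of the 3 DMSO libraries.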
